A study of Mus musculus with 6 samples.

Results

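The EGR, IER, ATF3, BTG2, DUSP1 and ZFP36 genes are immediate early response genes outside the FOS and JUN families. The 10 genes examined here, Egr1, Egr2, Egr3, Ier2, Ier3, Ier5, Atf3, Btg2, Dusp1 and Zfp36, were chosen by name from this response and make up 10 of the 48709 genes counted. Their transcript levels were compared in mouse G1E-ER4 cells, erythroid cells held at a progenitor stage until tamoxifen switches on their GATA1, which is supplied as a hormone-dependent fusion (GATA1-ER). The line goes back to mouse embryonic stem cells. Each of the 2 groups had 3 RNA-Seq libraries. CHD4-APR cells received a peptide with the aggregation-prone stretch YWLLAGII of the chromatin remodeler CHD4 joined to the cell-penetrating Tat sequence, and CTRL cells received a run of alanines joined to Tat as well. The dose was 10 μM for either peptide, tamoxifen was added after 2 h to move GATA1 into the nucleus, and the cells were kept for another 28 h. All libraries therefore came from induced cells of a single engineered line with a single peptide dose. The tamoxifen concentration is 100 nM in the culture protocol and 100 μM in the description of the RNA experiment.

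Immediate early genes are transcribed within minutes of a stimulus from growth factors, cytokines or stress, without the need for new protein synthesis. MAP kinases reach them through ternary complex factors and SRF, which bind CArG boxes, and through CREB, which binds the cAMP response element. Their mRNAs are short-lived, partly through AU-rich elements in the 3' untranslated region (UTR), and several of their products shut the response off again. By role, EGR1, EGR2 and EGR3 are zinc-finger transcription factors that bind GC-rich sites, IER2, IER3 and IER5 are small nuclear or membrane-associated regulators, ATF3 is a bZIP factor of the stress response, BTG2 restrains proliferation and binds the CCR4-NOT deadenylase, DUSP1 is a phosphatase that switches off MAP kinases, and ZFP36 binds AU-rich elements and starts decay of the mRNA.

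Of the sequences at hand, those before the starts of Dusp1, Btg2 and Zfp36 are shown because they hold binding sequences of the factors named above, and because Dusp1 rose with the CHD4-APR peptide while the others did not pass the test. RefSeq promoters (GRCm38.p6) were at hand for 7 of the 10 genes, namely Btg2, Ier5, Atf3, Zfp36, Egr2, Dusp1 and Ier3. The 250 bases before each RefSeq start were searched on both strands for the cAMP response element TGACGTCA, the EGR site GCGNGGGCG and the CArG box, and capitals mark every match to these 3. No match to one of the 3 overlapped another. The window of Zfp36 lies wholly in the first exon of a longer GENCODE M21 transcript, and 47 bases of the Dusp1 window lie in a GENCODE exon, so that only the 203 bases before it are shown for Dusp1 and the motifs with their flanks for Zfp36. Dusp1 (chr17:26508520-26508722, minus strand), Btg2 (chr1:134079156-134079405, minus strand) and the motifs of Zfp36 (chr7:28379315-28379343 and chr7:28379267-28379296, minus strand) read, 5' to 3' on the strand of the gene:
Dusp1: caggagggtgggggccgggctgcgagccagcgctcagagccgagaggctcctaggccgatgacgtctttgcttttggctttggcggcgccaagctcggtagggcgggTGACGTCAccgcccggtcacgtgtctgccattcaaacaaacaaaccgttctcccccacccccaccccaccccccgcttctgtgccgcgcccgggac
Btg2: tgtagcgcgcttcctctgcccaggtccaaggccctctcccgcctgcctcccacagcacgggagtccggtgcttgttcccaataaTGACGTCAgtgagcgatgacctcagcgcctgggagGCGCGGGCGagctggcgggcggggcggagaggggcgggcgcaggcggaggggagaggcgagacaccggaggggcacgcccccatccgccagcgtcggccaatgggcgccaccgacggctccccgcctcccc
Zfp36, EGR site: gagctacgccGCGGGGGCGcgtcccggaa
Zfp36, CArG box: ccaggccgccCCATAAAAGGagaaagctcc
The cAMP response element stood at position -143 to -136 before the start of Dusp1 and at -166 to -159 before that of Btg2. It was found in 1.55% of 32851 mouse promoters of this length, and in 2.74% of the 10736 promoters of genes tested here. An EGR site lay at -131 to -123 in Btg2 and at -105 to -97 in Zfp36, against 4.7% of all promoters and 8.85% of those of tested genes. The CArG box at -58 to -49 in Zfp36 was a sequence found in 1.47% of all promoters and 0.997% of those of tested genes. Egr2 has several annotated starts, of which 4 had a CArG box and 1 had none of the 3 motifs. In 3 of these 4, the windows overlap and hold the same CArG box. These motifs were not found in the promoter windows of Ier5, Atf3 and Ier3. The SP1 site GGGCGG was also searched and lay in windows of all 7 genes but not in every Egr2 window, against 32.7% of all promoters and 58.1% of those of tested genes, and it shared its end base with the CArG box of Zfp36. An ETS site, CCGGAA, lay in Zfp36 and in 1 window of Egr2 (12% and 24.4%), and neither the AP-1 site TGANTCA (6.75% and 3.87%) nor TATAAA (12.4% and 5.8%) was found in any window.

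The 3' UTRs were searched for the AU-rich nonamer TTATTTATT, the class of site that ZFP36 binds, and only Dusp1 and Zfp36 among the 10 genes held it. They are shown because the mRNA of Dusp1 rose and that of Zfp36 did not pass the test. Capitals mark the nonamer and lower case its flanks, 29 bases of a GENCODE M21 transcript in each:
Dusp1, bases 93 to 121 of the 3' UTR: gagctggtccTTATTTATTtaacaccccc
Dusp1, bases 382 to 410 of the 3' UTR: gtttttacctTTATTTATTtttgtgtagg
Zfp36, bases 579 to 607 of the 3' UTR: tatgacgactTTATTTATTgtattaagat
Dusp1 thus had 2 nonamers in a 3' UTR of 690 bases, where 4.56% of 1075 tested coding genes with a 3' UTR within 20% of that length had any. Zfp36 had 1 in 774 bases, where 4.01% of 1146 such genes had any. The core pentamer ATTTA occurred in 9 of the 10 genes and was lacking in Ier2. Ier3 had 5 in 613 bases, a number reached by 2.02% of 1042 tested coding genes of like length.

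The genes also share a compact structure. Of the 10 genes, 8 had 1 or 2 exons in their longest transcript, as did 12.8% of the 10100 coding genes tested, and 8 spanned fewer than 10000 bases, as did 26% of the coding genes tested. Spans cover all annotated transcripts of a gene. The other 2 genes were Atf3, with 4 exons and a span of 47744 bases, and Dusp1, with 3 exons and a span of 56539 bases, but the span of Dusp1 includes 2 transcripts with distal starts, and the coding transcript whose 3' UTR is shown above covers 2930 bases in 4 exons. In the same way, a coding transcript of Atf3 covers 13045 bases. Their GC content ran from 49.7% in Btg2 to 60.9% in Ier2, with a median of 53.1% against 49.7% in the tested coding genes.

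The libraries held 41687482 to 49784177 counts. Of all genes, 12722 had enough counts for edgeR's filter, and 38.3% of these had an FDR (Benjamini-Hochberg adjusted p) under 0.05 by edgeR's quasi-likelihood test between the groups, 20.4% higher and 17.8% lower with the CHD4-APR peptide. After a length and GC correction, described below, the calls were 1510 higher and 2011 lower, against 2601 and 2270 without it. The labels do not say whether the replicates were separate cultures, so p-values measure the spread between these libraries, which may be technical. All 16 erythroid markers (among them Gata1, Klf1 and Alas2) were tested, with a summed level of 73397 to 78558 normalized CPM (counts divided by the TMM-scaled library size) in CTRL and 62818 to 66967 in CHD4-APR libraries. Markers of other cells were low, at 4.48 to 5.22 and 3.72 to 5 CPM for 10 myeloid and mast cell genes with Mpo and Mcpt8 at 0, at 0.304 to 0.637 and 0.328 to 0.604 CPM for 6 lymphoid genes with Cd3e, Cd79b and Ms4a1 at 0, and at 0.217 CPM or less for 6 stromal and endothelial genes with Col1a1, Col1a2, Col3a1 and Cdh5 at 0. The 6 megakaryocyte genes, with Ppbp at 0, summed to 47.6 to 50.2 CPM in CTRL and 41.2 to 46.8 in CHD4-APR libraries. The part of the erythroid and megakaryocyte differences in the results below was not tested, and fewer cells of a type cannot be told apart from less RNA per cell.

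The levels of the 10 genes spanned from abundant to none. On the RPKM scale, normalized CPM divided by the exonic length in kilobases, Btg2 had a mean level of 209 over the 6 libraries (202 to 213), which placed it at the 98.1st percentile of the genes tested. Ier5 followed at 18.5 RPKM (17.4 to 19.8) and Zfp36 at 17.3 (16.5 to 18.2), and the ranges of this pair overlapped. Ier2 at 8.24 RPKM (7.18 to 9.94) and Ier3 at 7.87 (5.71 to 9.69) overlapped likewise. Dusp1 had 4.49 RPKM (3.63 to 5.36) and Egr1 1.48 (1.11 to 2.06), each below its neighbour in every library. Egr2, Atf3 and Egr3 were at or near 0. The order depends on the annotated exons, since the exonic length of a gene includes that of all its transcripts.

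**Figure D1:**
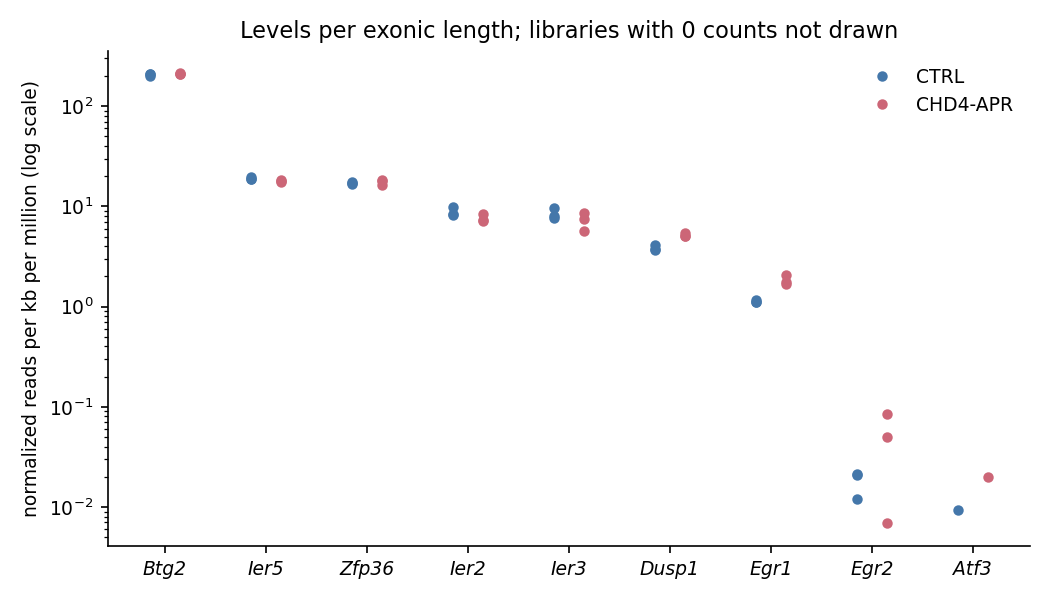
RPKM levels (log axis) of 9 genes, ordered by mean, with 1 point per library in CTRL (blue) and CHD4-APR (red). Btg2 lies near 209 RPKM, Egr1 near 1.48, and Egr2 and Atf3 under 0.1; libraries at 0 counts, among them all 6 of Egr3, are not drawn.

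Egr1 and Dusp1 rose with the CHD4-APR peptide, and none of the other 5 tested genes passed the test in either direction. Of the 7 tested genes, 2 (28.6%) had an FDR under 0.05 by edgeR, where 38.3% of all genes tested did. The groups did not overlap for 3 of the 7 genes (42.9%), against 49.9% of all genes tested. The median log2 fold change of the 7 was 0.035, beside -0.012 over all genes tested. These shares are near or below those of all genes, so the 7 genes did not stand out as a group by the number of calls.

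Egr1 (ENSMUSG00000038418, chromosome 18 from 34859823 to 34864984, plus strand, in GRCm38) encodes the founding EGR factor, which passes a brief signal on to later genes. It had 4.98, 5.2 and 5.02 normalized CPM in CTRL replicates 1 to 3, and 7.45, 7.81 and 9.23 in CHD4-APR replicates 1 to 3. Each CHD4-APR library lay above each CTRL library. The means were 5.07 ± 0.119 (SD, n = 3) and 8.17 ± 0.942 (SD, n = 3), a 1.61-fold rise and a log2 fold change of 0.69 (SE 0.1, 95% interval 0.47 to 0.91, FDR 0.000101 by edgeR's quasi-likelihood test). Its counts were between 208 and 436 per library. In size, this change was the 537th of the 12722 genes tested, and 4.23% of all genes passed both the test and 1.5-fold, as Egr1 did.

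Egr2 and Egr3, paralogs of Egr1, were barely present. Egr2 (ENSMUSG00000037868, chromosome 10 from 67535475 to 67542188, plus strand) had 3, 2 and 3 counts in CTRL and 13, 1 and 8 in CHD4-APR replicates 1 to 3. The CHD4-APR values lay on both sides of the CTRL values, and without a filter on low counts its FDR was 0.271 by edgeR. Egr3 (ENSMUSG00000033730, chromosome 14 from 70077203 to 70082614, plus strand) had 0 counts in all 6 libraries. A count of 0 allows up to 3 counts in a library, here 0.0608 to 0.0725 CPM, for counting error only.

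NAB1 and NAB2 are corepressors that bind EGR factors, and NAB2 is known to recruit CHD4. Nab1 rose from 8.34 ± 0.283 to 11.3 ± 1.46 normalized CPM (SD, n = 3 each), with a log2 fold change of 0.43 (FDR 0.00228 by edgeR). Nab2 had 0.706 ± 0.0279 and 0.689 ± 0.0766 CPM (SD, n = 3 each), with a log2 fold change of -0.03 and a 95% interval from -0.59 to 0.52. Chd4 itself had 231 ± 5.35 CPM in CTRL and 240 ± 2.56 in CHD4-APR libraries (SD, n = 3 each), with a log2 fold change of 0.05 (FDR 0.322 by edgeR).

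Dusp1 (ENSMUSG00000024190, chromosome 17 from 26505590 to 26562128, minus strand) encodes the MAP kinase phosphatase and is the gene with the cAMP response element and the pair of AU-rich nonamers shown above. It had 12, 12.5 and 13.8 normalized CPM in CTRL replicates 1 to 3, and 16.6, 17.7 and 16.7 in CHD4-APR replicates 1 to 3. The groups did not overlap. The means were 12.7 ± 0.911 (SD, n = 3) and 17 ± 0.63 (SD, n = 3), a 1.34-fold rise and a log2 fold change of 0.42 (SE 0.076, 95% interval 0.26 to 0.58, FDR 0.000438 by edgeR). Exons of Ergic1 on the opposite strand overlap 11 exonic bases of Dusp1. The TruSeq kit named in the labels is of a type that keeps no strand information, and whether strand was used in counting is not given in the sources used here. Ergic1 had 386 to 516 counts per library with a log2 fold change of -0.06 (FDR 0.666 by edgeR).

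Btg2 (ENSMUSG00000020423, chromosome 1 from 134075170 to 134079120, minus strand) carries the same cAMP response element and did not pass the test. It had 553, 575 and 569 normalized CPM in CTRL and 579, 585 and 575 in CHD4-APR replicates 1 to 3, so that CTRL replicate 2 and CHD4-APR replicate 3 coincided to 3 digits. Its log2 fold change was 0.03 (95% interval -0.05 to 0.12, FDR 0.532 by edgeR). It had 23438 to 28411 counts per library. Its biological coefficient of variation was 0.0383, at percentile 0.967 of the genes tested, so the fit gave Btg2 less spread between replicates than nearly all other genes.

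Zfp36 (ENSMUSG00000044786, chromosome 7 from 28376784 to 28380253, minus strand), the AU-rich element binding protein, had 58.9, 58.3 and 60.6 normalized CPM in CTRL and 63.2, 61.8 and 57.2 in CHD4-APR replicates 1 to 3. The CHD4-APR libraries held both the highest and the lowest value. The log2 fold change was 0.04 (95% interval -0.07 to 0.14, FDR 0.627 by edgeR). The antisense gene Gm44710 shares 125 exonic bases with Zfp36 and had 80 to 100 counts per library, beside 2495 to 2877 for Zfp36, so that reads of both cannot be told apart there.

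**Figure D2:**
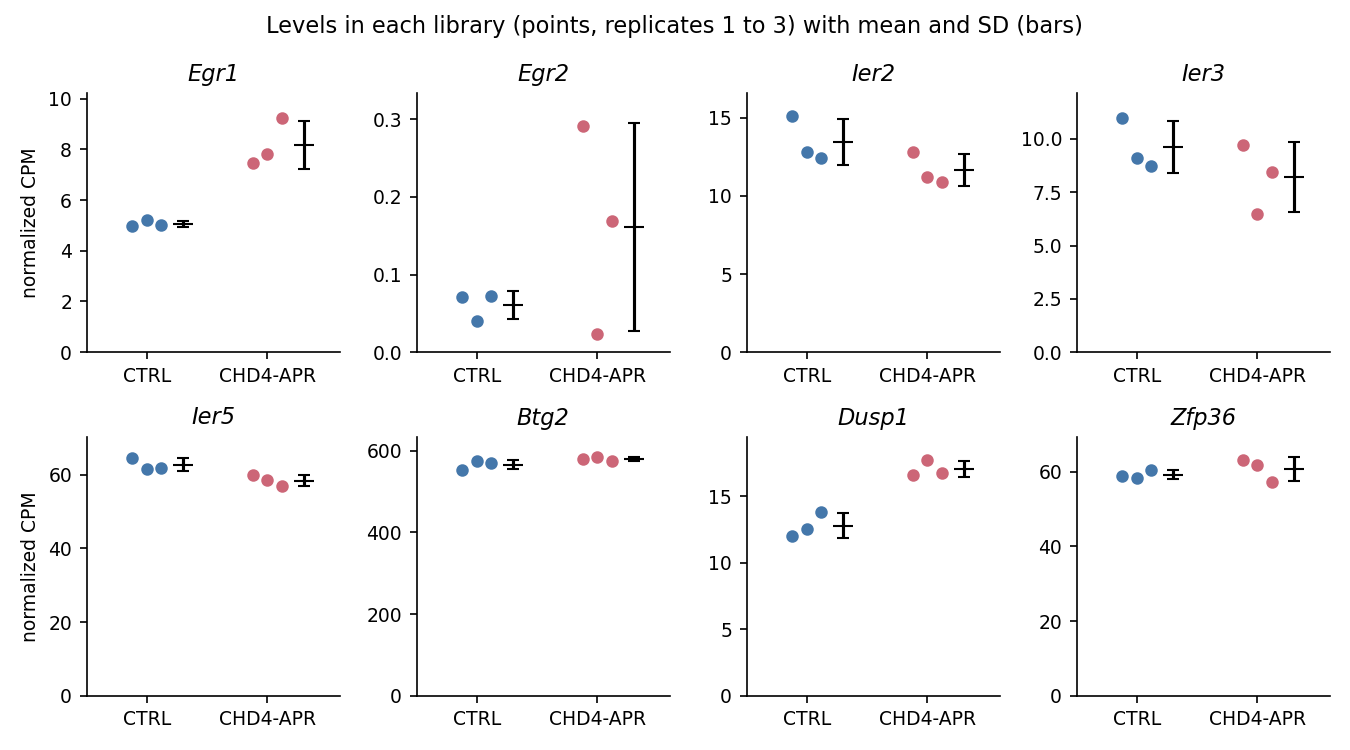
Normalized CPM (linear axes from 0) of 8 genes in CTRL (blue) and CHD4-APR (red) libraries, 1 point per replicate, with the mean and SD of 3 libraries beside them. The groups separate for Egr1, Dusp1 and narrowly for Ier5, and overlap for the other 5 genes.

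The IER genes had negative differences that did not pass the test. Ier5 (ENSMUSG00000056708, chromosome 1 from 155096361 to 155099636, minus strand), a heat shock and growth factor responsive regulator, had 64.7, 61.7 and 62 normalized CPM in CTRL and 59.9, 58.5 and 57 in CHD4-APR replicates 1 to 3. Each CHD4-APR library lay below each CTRL library, but the log2 fold change of -0.10 had an FDR of 0.103 (unadjusted p = 0.0473) by edgeR. Ier2 (ENSMUSG00000053560, chromosome 8 from 84661331 to 84662852, minus strand), a nuclear regulator with a single exon, had 15.1, 12.8 and 12.4 CPM in CTRL and 12.8, 11.2 and 10.9 in CHD4-APR replicates 1 to 3. Its groups overlapped, with a log2 fold change of -0.21 (95% interval -0.40 to -0.02, FDR 0.082, unadjusted p = 0.0356 by edgeR). Ier3 (ENSMUSG00000003541, chromosome 17 from 35821684 to 35822923, plus strand), a survival and ERK pathway regulator, had 11, 9.09 and 8.74 CPM in CTRL and 9.73, 6.46 and 8.45 in CHD4-APR replicates 1 to 3. Its log2 fold change was -0.22 (95% interval -0.49 to 0.05, FDR 0.185 by edgeR), and CHD4-APR replicate 2 was the lowest of the 6 libraries. Both values depended on single libraries. Without CHD4-APR replicate 1, Ier2 and Ier3 had log2 fold changes of -0.28 and -0.36 and passed (FDR 0.041 and 0.0427 by edgeR), without CTRL replicate 1 both had -0.12 (FDR 0.329 and 0.524), and without CHD4-APR replicate 2 Ier3 had -0.08 (FDR 0.675).

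Atf3 (ENSMUSG00000026628, chromosome 1 from 191170296 to 191218039, minus strand), the stress-induced bZIP factor, had 1 count in CTRL replicate 2, 2 counts in CHD4-APR replicate 3 and 0 counts in the other 4 libraries. Its level was within the limit that a count of 0 allows in every library, and no difference was detectable at this depth.

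As an alternative, a smooth trend of the counts in each library with exonic length and GC content was removed. With this trend removed, Egr1 and Dusp1 had log2 fold changes of 0.79 (95% interval 0.57 to 1.01, FDR 6.15e-05) and 0.51 (95% interval 0.36 to 0.67, FDR 0.000102) by edgeR. Ier2, Ier3 and Ier5 moved close to 0, at -0.04, -0.06 and -0.03. Zfp36 had 0.13 and Btg2 0.09, with FDR values of 0.0503 and 0.0723. The number of the 7 genes with an FDR under 0.05 was again 2, where 27.8% of all genes passed after this correction.

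**Figure D3:**
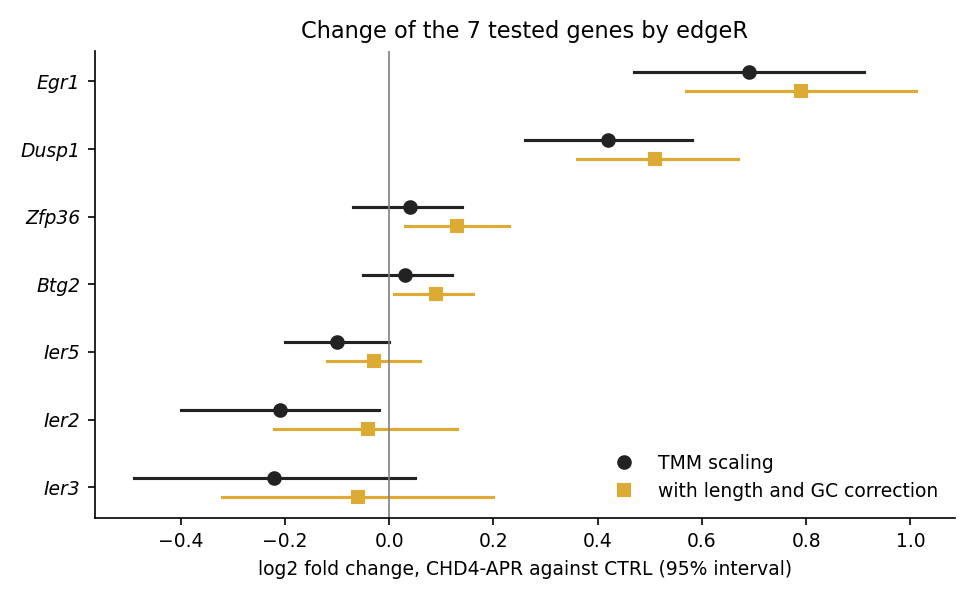
Log2 fold change (x axis) of the 7 tested genes with its 95% interval, from edgeR with TMM scaling (black circles) and with the length and GC correction (yellow squares). The intervals of Egr1 and Dusp1 lie above 0 in both, and those of Ier5, Ier2 and Ier3 move toward 0 with the correction.

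Within groups the genes did not share one pattern over the libraries. Ier2 and Ier3 were both highest in replicate 1 of each group, with a correlation of 0.76 between their deviations from the group means, and Ier2 and Ier5 had one of 0.94. Egr1 and Zfp36 had a correlation of -0.96, and Egr1 and Dusp1, the genes that rose, one of -0.10. These values describe 6 libraries in 2 groups of 3 and share depth and scaling. The genes whose log2 CPM followed Egr1 most closely over the 6 libraries, among 9892 genes averaging 1 log2 CPM or more, were Birc3, Fxr1, Agtpbp1, Naa25 and Tsc22d3, with correlations of 0.9948 to 0.9921. Of these, Birc3, an inhibitor of apoptosis, Naa25, a subunit of an N-terminal acetyltransferase, and Tsc22d3, a glucocorticoid-induced regulator, rose by 0.39, 0.18 and 0.58 on the log2 scale (FDR 0.000928, 0.0299 and 6.1e-05 by edgeR), and Fxr1 and Agtpbp1 did not pass (0.11 and 0.14, FDR 0.0564 and 0.109). Dusp1 had 0.91 on this measure and ranked 904th, and Ier5 had -0.93. Much of such a correlation comes from the difference between the groups, which both genes of a pair share.

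**Figure D4:**
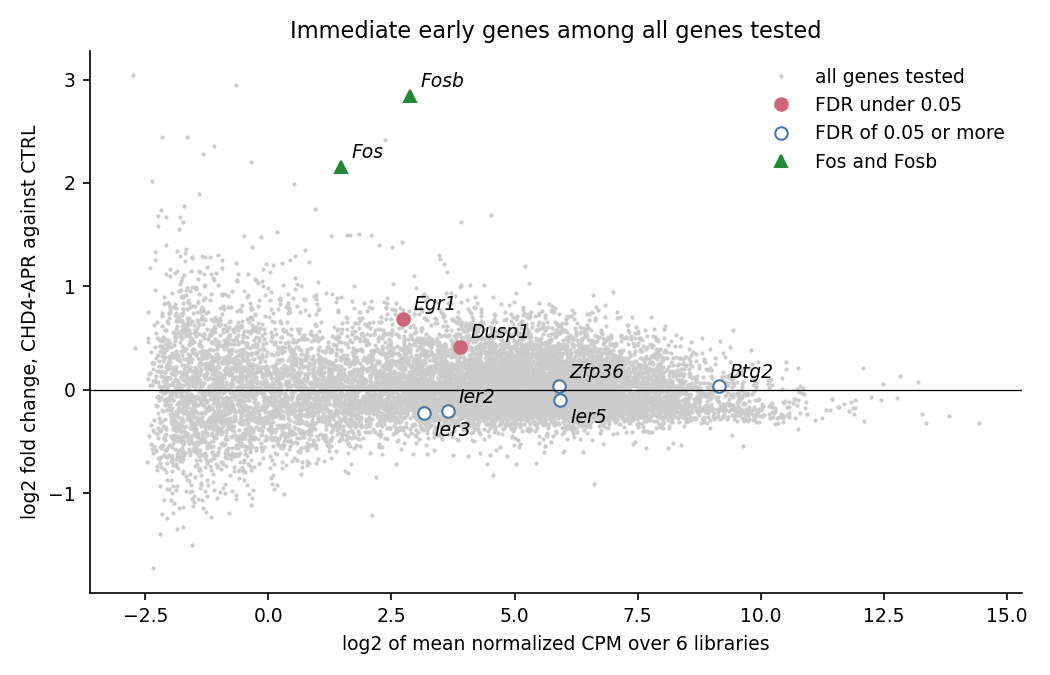
Log2 fold change (y axis) against the log2 of mean normalized CPM (x axis) of the 12722 genes tested (grey), with the 7 immediate early genes as circles (filled with an FDR under 0.05) and Fos and Fosb as triangles. Egr1 at 0.69 and Dusp1 at 0.42 lie above 0 within the cloud, and the other 5 lie between -0.22 and 0.04.

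In the FOS and JUN family, which forms the AP-1 factors of the same response, 4 of 5 tested genes were higher with an FDR under 0.05, against 20.4% of all genes tested. Fosb had the largest rise, with a log2 fold change of 2.84 (FDR 2.52e-07 by edgeR), and Jund the smallest among those that passed, with 0.50 (FDR 1e-04), while Junb had -0.11 (FDR 0.0624), and 0.03 after the length and GC correction (FDR 0.666).

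Among 37 further immediate early genes, 21 were tested, of which 6 were higher and 2 lower with an FDR under 0.05 (38.1%, against 38.3% of all genes tested), with a median log2 fold change of 0.12. Tnfaip3, an inhibitor of NF-κB signalling, rose from 8.9 ± 0.663 to 14.5 ± 0.21 CPM (log2 fold change 0.70), and Nfkbia, the NF-κB inhibitor IκBα, from 18.1 ± 1.68 to 23.5 ± 1.21 CPM (0.37; SD, n = 3 each). The Krüppel-like factor gene Klf6 rose from 51.8 ± 2.35 to 81 ± 5.31 CPM (log2 fold change 0.65; SD, n = 3 each) and Myc, a growth regulator, by 0.33 on the log2 scale (FDR 0.0486 by edgeR). Id1, an inhibitor of bHLH factors, fell by 0.21 and Ppp1r15a, a phosphatase subunit of the integrated stress response, by 0.19 on the log2 scale. After the length and GC correction, these 2 genes had -0.05 and -0.06 and no longer passed (FDR 0.567 and 0.197 by edgeR), and the list had 8 higher and 0 lower calls (38.1%, against 27.8% of all genes).

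Paralogs of Zfp36, Btg2 and Dusp1 were among the genes that rose. Of 23 paralogs, 9 were tested, and 5 were higher and 0 lower with an FDR under 0.05 by edgeR (55.6%, against 38.3% of all genes tested), with a median log2 fold change of 0.20. The correction left 5 higher and 0 lower (against 27.8% of all genes). Zfp36l1 and Zfp36l2, which bind AU-rich elements as Zfp36 does, had log2 fold changes of 0.48 (FDR 3.68e-06) and 0.18 (FDR 0.0431) by edgeR. Zfp36l1 went from 44.8 ± 1.3 to 62.3 ± 1.87 CPM (SD, n = 3 each). The BTG family members Tob1 and Tob2 rose by 0.71 (FDR 5.22e-05) and 0.20 (FDR 0.00611), and Btg1 had 0.06 (FDR 0.451) by edgeR. Dusp16, a phosphatase of stress-activated MAP kinases, rose from 33.7 ± 0.441 to 46.3 ± 0.76 CPM, with a log2 fold change of 0.46 (FDR 6.53e-06 by edgeR). No test compared a gene with its paralog.

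Genes that switch on the immediate early response went both ways. Of 27 kinases, SRF and CREB factors and coactivators, 25 were tested, 13 higher and 5 lower with an FDR under 0.05 (72%, against 38.3% of all genes tested), with a median log2 fold change of 0.17. Those with the largest changes were Mrtfb, an SRF coactivator, at 0.66, Ep300, a histone acetyltransferase, at 0.50, Rps6ka5, the kinase MSK1, at 0.48, Braf at 0.45, Creb1 at 0.39 and Rps6ka3 at 0.37. Srf had 26.6 ± 1.25 and 27.2 ± 0.179 CPM (SD, n = 3 each), with a log2 fold change of 0.03 (FDR 0.743 by edgeR). The length and GC correction took the number of calls from 18 to 9, with 5 higher and 4 lower (36%, against 27.8% of all genes) and a median of 0.043, and Creb1, Rps6ka3 and Rps6ka5 then had 0.02, 0.04 and 0.17 and did not pass. Mrtfb, Ep300 and Braf still passed, at 0.54, 0.36 and 0.12 (FDR 0.00143, 4.53e-05 and 0.0334 by edgeR). The 5 genes called lower without the correction were the kinase genes Rps6ka4, Map2k2, Map2k7, Map2k3 and Mapk3, at -0.26, -0.24, -0.18, -0.17 and -0.16, of which Map2k2 still passed with it, at -0.16 (FDR 0.00555 by edgeR).

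BTG2 and ZFP36 act through the CCR4-NOT deadenylase and the decapping and 5' to 3' decay enzymes. Of 28 genes of mRNA decay and AU-rich element binding, all 28 were tested, 14 higher and 2 lower with an FDR under 0.05 (57.1%, against 38.3% of all genes tested), with a median log2 fold change of 0.11. After the length and GC correction there were 8 higher and 3 lower (39.3%, against 27.8% of all genes), the values were positive in 14 genes and negative in 14, where they had been positive in 23, and the median was 0.0062. The 5' exonuclease gene Xrn1 rose from 37.1 ± 4.52 to 61.3 ± 3.69 CPM (log2 fold change 0.73, SD, n = 3 each). The decapping genes Dcp2 and Dcp1a rose by 0.56 and 0.41, the helicase gene Ddx6 by 0.50, and the deadenylase genes Cnot6l and Cnot6 by 0.54 and 0.51 on the log2 scale. With the correction these 6 genes still passed, at smaller log2 fold changes of 0.15 to 0.38, whereas Cnot1, Tia1 and Elavl1 went from 0.32, 0.41 and 0.26 to 0.02, 0.06 and 0.02 and no longer passed. The genes called lower were Cnot3, a CCR4-NOT subunit, and Hnrnpd, at -0.20 and -0.12 (FDR 0.00221 and 0.0481 by edgeR), and both still passed with the correction, at -0.27 and -0.41. Tial1, which like Hnrnpd binds AU-rich mRNAs, had 0.07 (FDR 0.266) and passed as lower only with the correction, at -0.21 (FDR 0.00078 by edgeR).

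**Figure D5:**
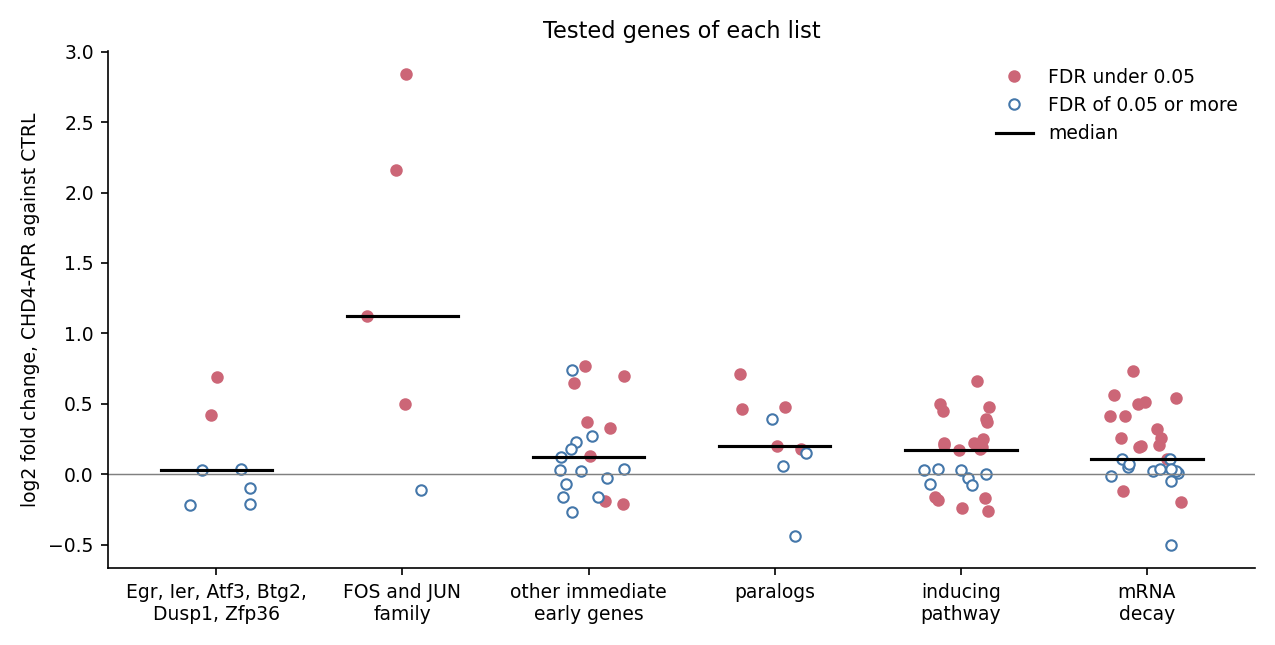
Log2 fold change (y axis) of each tested gene in 6 lists, filled where the FDR was under 0.05, with a line at the median of each list. The medians are 0.035 for the 7 genes examined here, 1.1 for the FOS and JUN family, and 0.11 to 0.20 for the other lists. With the length and GC correction, which is not drawn, the medians of the inducing pathway and mRNA decay lists are 0.043 and 0.0062.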

How the data were processed

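RNA was sequenced from 6 libraries, 3 of CHD4-APR-treated and 3 of CTRL-treated cells. Per the labels and the methods, the authors removed adaptors (Cutadapt), mapped the reads to GRCm38 (STAR 2.7.10a) and obtained gene counts with featureCounts. The deposited counts are whole numbers and not normalized. Whether strand was used in counting, and how reads matching several genes were treated, is not given in the sources used here. Another 2 columns match no sample and were not used.

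Genes were named with GENCODE M21 on GRCm38, which held 48349 of the 48709 identifiers. Counts were analysed with edgeR 4.0.16 in R 4.3.3 (filterByExpr, TMM scaling, quasi-likelihood F-test without a block, two-sided, Benjamini-Hochberg over all 12722 genes tested, threshold 0.05), whereas the study used DESeq2. Each SE is the log2 fold change divided by the root of its F value. Log2 CPM used a prior count of 2. The alternatives were DESeq2 1.42.0, limma-voom (limma 3.58.1), other scalings, other filters, another threshold, removal of hemoglobin genes, a replicate block, offsets from a loess trend (span 0.3) on length and GC content, and leaving out each library. The procedures were tested on simulated counts. No pair of replicates was alike within sampling noise (chi-square per degree of freedom 4.62 to 15.5).

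The text names the 10 genes, the FOS and JUN genes at the extremes, Nab1, Nab2, Chd4, up to 6 genes with an FDR under 0.05 of each list by size of change (averaging 1 log2 CPM or more), and the 5 genes most correlated with Egr1. Other genes named were chosen after their values were seen, and marker lists are given as sums. The 10 genes and the lists were chosen with earlier results of these data known.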

Additional observations from a re-analysis of the deposited data

How the results depend on the processing

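Egr1 and Dusp1 were higher with an FDR under 0.05 in all 16 alternatives run, with log2 fold changes of 0.59 to 0.79 and 0.38 to 0.51. The number of called genes among the 7 was 2, and leaving out single libraries gave 2 to 4, where 4 came without CHD4-APR replicate 1. It was 4 with a replicate block, which added Ier2 and Ier3 as lower (log2 fold changes -0.21 and -0.23, FDR 0.034 and 0.0484 by edgeR). Same-numbered libraries correlated at 0.0697, 0.0552 and -0.035 in their deviations from the group means, so not every library correlated best with its own number, and the numbers were not taken as pairs. Over all genes the block gave 2739 higher and 2475 lower calls. With the block and the length and GC correction together, Zfp36 passed at 0.13 (FDR 0.0296 by edgeR).

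The median log2 fold change of the 7 genes was 0.018 with upper quartile scaling, 0.088 with the length and GC correction, 0.089 with that and the replicate block, and from 0.0094 to 0.047 when single libraries were dropped. Dropping CTRL replicate 1 gave 0.018, and dropping CHD4-APR replicate 1 gave 0.0094. Of the further immediate early genes 4 passed at an FDR under 0.01, and 5 to 7 at 0.05 when single libraries were dropped, with 5 on dropping CHD4-APR replicate 2. Of the inducing pathway genes 9 passed with the length and GC correction, and 9 with the replicate block as well. The cause of these changes was not tested. Depth limits what can be said of Egr2, Egr3 and Atf3.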

Other observations

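The 10 heat shock genes, not all of them stress-induced, summed to 2328 to 2462 normalized CPM in CTRL and 2329 to 2419 in CHD4-APR libraries. Much of this sum was Hspa8, at 1465 ± 66.5 CPM in CTRL and 1352 ± 48.5 in CHD4-APR libraries (SD, n = 3 each). Hspb1 had 0 counts. Hspa1a had means of 0.21 and 0.202 CPM and Hspa1b of 0.546 and 0.429 (CTRL and CHD4-APR). The sum therefore does not show how the single genes changed. Of 8 tested, 2 were higher and 1 lower with an FDR under 0.05 by edgeR (37.5%), against 38.3% of all genes tested. Hsph1 and Hsp90aa1, cytosolic chaperones, had log2 fold changes of 0.29 and 0.27, and Hspe1, a mitochondrial co-chaperone, had -0.21. After the length and GC correction, 2 were higher and 2 lower (50%, against 27.8% of all genes), with Hsph1 at 0.14, Hsp90aa1 at 0.16, Hspe1 at -0.22 and Hspa8, a constitutive chaperone, at -0.21 (FDR 0.00291). Of the 15 genes for NuRD and ChAHP subunits, 3 were higher (Adnp, Gatad2b and Rbbp4, at 0.51, 0.21 and 0.19) and 2 lower (Mbd3 and Gatad2a, at -0.27 and -0.16) with an FDR under 0.05 by edgeR (33.3%, against 38.3% of all genes tested). After the length and GC correction, Gatad2b and Rbbp4 both had -0.03, Adnp 0.43 (FDR 0.054) and Mbd3 -0.12 (FDR 0.0524), and Gatad2a alone of the 5 still passed, at -0.12 (FDR 0.0151). In all, 6 of the 15 then passed (40%, against 27.8% of all genes), with Mta1, Mta2 and Hdac1 higher, at 0.21, 0.12 and 0.12, and Cbx3 and Chd3 lower beside Gatad2a, at -0.19 and -0.10.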
